A study of Mus musculus with 8 samples.

Results

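Early erythroid progenitor A (Early Ery A) cells of mouse bone marrow were described by 35 surface proteins. The cells were those that the authors had assigned to the class from RNA alone, and they numbered 1135 of 22602 annotated cells. They were compared with 532 megakaryocyte-erythroid progenitors (MEP) and with 2460 cells of the class Early erythroid progenitor B (Early Ery B), both named by the same RNA annotation. Surface proteins had no part in the assignment.

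All mice were FlkSwitch males on a C57Bl/6 background, in which Flk2-Cre turns cells from tdTomato to GFP at the multipotent progenitor stage. The Cre is read out only in cells that pass through a Flk2-expressing stage, and the reporter is then kept for life. Young mice were 2 to 3 months old and Old mice 20 to 24 months old, and the labels name no treatment. Live lineage-negative c-Kit+ marrow cells had been sorted into touching CD150- and CD150+ gates, and 8 libraries were made. Sorted fractions were split and multiplexed, and neither the sources for the libraries nor the cell table tie a cell to an animal or to a sorted fraction. Cells instead carry a label made of a letter (A, B, C or D) and a number (1, 2, 3 or 4), called the cell group here, with numbers 1 and 2 Young and numbers 3 and 4 Old. What the letters and numbers stand for is not stated in the sources used here, and no cell group name matches a library title. All cells were therefore treated as 1 sample and no test was run. An exact two-sided sign-flip test over 4 letters could not have gone below p = 0.13. Differences are given with their SD over cell groups or letters, which measures the spread within these libraries and not between animals.

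Early erythroid progenitors lie between bipotent progenitors and the first nucleated red cell precursors. As background, commitment to the red lineage is accompanied by gain of endoglin (CD105), a co-receptor for the TGF-beta family, while the stem cell factor receptor c-Kit (CD117) is still present and glycophorin-associated TER-119 appears later. The megakaryocyte branch instead keeps the integrins CD41 and CD61 and the tetraspanin CD9. SLAM proteins such as CD150 and CD48 are used with these proteins to sort progenitors of the marrow.

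Each level below is the deposited normalized score of an antibody tag, averaged over the cells of a cell group. The score has no unit, runs near 0 where few tags were counted and is compared by differences. Percent of tags, the share of all tag counts of a class or cell group, is given where a ratio is wanted. The CD105 antibody was biotinylated and was read through barcoded streptavidin, and cells had been stained with fluorescent CD117 and CD150 antibodies and with unlabelled lineage antibodies before the tags were added. The part of these steps in the levels was not tested, and tag shares of different antibodies are not read as amounts of protein.

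Some cell groups stood apart. Of the later erythroid cells, the class Ery B held 1 and 2 cells in letters A and B but 562 and 898 cells in letters C and D, while Ery C held 1689 and 1611 cells in letters A and B and 61 and 110 in letters C and D. Early Ery A cells came from all 16 cell groups, with 22 to 293 cells each, and letters A, B, C and D gave 420, 406, 133 and 176 of them. Cell groups A2 and B2 alone held 293 and 266. A total of 52 barcodes occurred in more than 1 cell group, which touched 104 cells and 8 Early Ery A cells. A median of 1091 tags and 35914 RNA molecules was counted per Early Ery A cell, against 942.5 and 22970.5 in MEP and 1434 and 58064.5 in Early Ery B. The median share of mitochondrial RNA was 2.69% in Early Ery A, 2.92% in MEP and 2.89% in Early Ery B.

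The 4 marker proteins named for the class were all present. CD44, an adhesion receptor for hyaluronan, had the largest share of tags in Early Ery A cells, at 41.9%. Its scores ran from 1.60 to 1.81 over the 16 cell groups (median 1.72). CD117 came next with 22.1% of tags, and its scores ran from 1.53 to 1.64 (median 1.59). CD48 held 16.7% of tags, with scores from 1.28 to 1.70 (median 1.50). CD105 held 3.23% of tags, and its score had a wide range, from 0.816 to 1.36 (median 1.12). CD117, CD44 and CD48 tags were found in 100% of the cells and CD105 tags in 99.9%. TER-119 was low, with 0.0771% of tags and scores from 0.0838 to 0.187.

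CD105 was higher in Early Ery A than in every class outside the erythroid ones when cells of the same cell group were compared. The mean score of 1.12 ± 0.219 (SD over 16 cell groups) ranked 6 among 19 RNA classes, behind the 5 other erythroid classes. HSC, the class next in order, had 0.695 ± 0.110 (n = 5 cell groups) and CMP/other had 0.686 ± 0.157 (n = 16). MEP had 0.587 ± 0.120 (n = 12) and ranked 14. The lowest Early Ery A cell group, at 0.816, lay below the highest HSC group at 0.858 and the highest CMP/other group at 0.936, so the ranges over cell groups overlapped. These class means rest on different cell groups, and CD105 differed between cell groups within a class (from 0.816 to 1.36 in Early Ery A). Within the same cell groups, Early Ery A minus HSC was 0.280 ± 0.101 (higher in 5 of 5) and Early Ery A minus CMP/other was 0.430 ± 0.0807 (higher in 16 of 16). Early Ery A was lower than Ery A, Ery B, Ery C and Ery 4 in every shared cell group, by -0.200 ± 0.0515 (n = 12) for Ery A and -0.291 ± 0.0475 (n = 10) for Ery 4. Of the other markers, CD117 ranked 4, CD44 ranked 8 and CD48 ranked 10, and none of them set the class apart by its level.

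The mean TER-119 scores of the 6 erythroid classes had the same order as those of CD105, though the classes came from different letters, with Ery B mostly from C and D and Ery C mostly from A and B. Its mean score was 0.126 ± 0.024 in Early Ery A and 0.186 ± 0.105 in Early Ery B (n = 16 each). It was 0.479 ± 0.312 in Ery A (n = 12), 0.536 ± 0.328 in Ery B (n = 8), 0.706 ± 0.167 in Ery C (n = 10) and 0.893 ± 0.213 in Ery 4 (n = 10). No neighbours in that order differed by more than the larger of their SDs, which come from different cell groups. Within the same cell groups TER-119 was lower in Early Ery A than in Ery A in 12 of 12 (-0.351 ± 0.300) and than in Ery C in 10 of 10 (-0.573 ± 0.155). Early Ery A ranked 6 in TER-119, just above CMP/other with 0.088 ± 0.026.

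**Figure D1:**
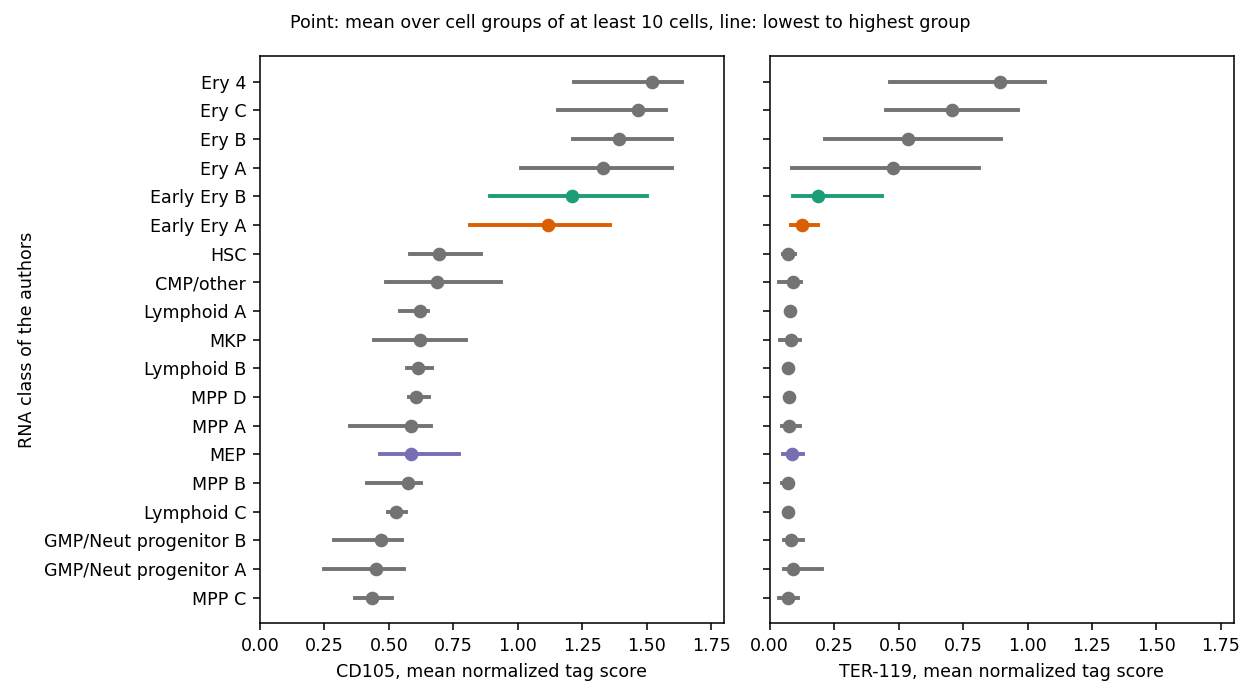
Mean normalized tag score (horizontal axes, no unit) of CD105 (left) and TER-119 (right) in 19 RNA classes, in the order of CD105. Points are means over cell groups of at least 10 cells and lines run from the lowest to the highest cell group. Early Ery A (orange) sat at 1.12 for CD105 and 0.126 for TER-119, while MEP (purple) sat at 0.587 and 0.084.

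Among the proteins outside the marker list, CD79b had the largest share of tags. This B-cell receptor component held 4.65% of Early Ery A tags, and its score ran from 0.919 to 1.47 over cell groups (median 1.18). It was also high in Ery 4, at 1.40 ± 0.142, and lowest in the MKP class, at 0.835 ± 0.086, and the 6 erythroid classes held its 6 highest levels. The myeloid antigen Gr1 came next with scores from 0.705 to 0.885. CD9, CD27 and the adhesion receptor CD54 had medians of 0.749, 0.673 and 0.649. CD150 ran from 0.272 to 0.934 (median 0.605). The platelet integrin chain CD41 and the stem cell antigen CD34 were near the floor, with medians of 0.108 and 0.114, and at least 1 tag was found in 47.8% and 54.8% of cells. The 8 mature lineage antibodies together took 0.940% to 2.81% of tags in the 8 Young cell groups (median 1.62%) and 1.30% to 2.60% in the 8 Old ones (median 1.97%).

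The gates that the study had set on these scores were applied to the class. All 1135 cells lay above the CD117 gate of 1, and none lay within 0.1 of it. Cells had been sorted as c-Kit+, and all 532 MEP and all 2460 Early Ery B cells also lay above that gate. It therefore cannot set the class apart. Sca-1 lay below the gate of 0.71 in 1072 cells, or 94.4% (exact Clopper-Pearson 95% interval 93.0% to 95.7%, counting error only). A total of 158 cells (13.9%) lay within 0.1 of the Sca-1 gate. CD150 lay above 0.45 in 902 cells, or 79.5% (77.0% to 81.8%), and 144 cells lay within 0.1 of that gate. The same share was 79.9% in MEP and 70.0% in Early Ery B. Cells had been sorted on CD150, so these shares are not read as traits of a class. CD41 lay above 0.6 in 3 cells, or 0.264% (0.055% to 0.770%), and CD48 lay above 1.1 in 1132 cells. The combined megakaryocyte progenitor gate took 2 Early Ery A cells (0.176%), 34 MEP cells (6.39%) and 2 Early Ery B cells (0.0813%).

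Early Ery A cells were set beside MEP within each cell group with a minimum of 10 cells of both classes, 12 in all. A protein was counted where the difference had 1 direction in all 12. By that rule 5 proteins were higher in Early Ery A (14.3% of the 35 measured) and 9 were lower (25.7%), 14 in all (40.0%). The erythroid proteins CD105, CD44 and CD117 were higher, the megakaryocyte proteins CD41, CD61 and CD9 were lower, and the stem and multipotent proteins CD27, CD38, CD34 and Sca-1 were lower.

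CD105 had the largest difference of the 35 proteins. Its score in MEP ran from 0.468 to 0.770 over the 12 cell groups (median 0.558), and no MEP cell group reached the lowest Early Ery A cell group at 0.816. Early Ery A minus MEP was 0.464 ± 0.110, with a lowest value of 0.348 and a highest of 0.649. A randomly drawn Early Ery A cell scored above a MEP cell of the same cell group with a mean probability of 0.950, and the range was 0.873 to 1.00. CD105 took 3.38% of tags in Early Ery A and 0.850% in MEP on average over these cell groups, a geometric mean ratio of 3.72. Eng, its gene, lies on chromosome 2 at 32646595 to 32682669 (GRCm38, forward strand).

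The other erythroid proteins differed less. CD44 was higher by 0.0884 ± 0.0246, with a probability of 0.831 that an Early Ery A cell scored higher. CD117 was higher by 0.0521 ± 0.034, with the smallest cell group difference at 0.00454. TER-119 had a difference of 0.0328 ± 0.0358 and was higher in 9 of 12 cell groups. Of the 4 proteins of the erythroid list 3 were higher in every cell group. The list had a median difference of 0.0702, beside a median of -0.00211 over all 35 proteins. It holds 3 of the 4 markers named for the class and was chosen with earlier results of these data known. Its count and median are therefore a description only. The CD117 call was lost when every cell was thinned to 300 tags, and also with log2 of counts per 1000, with centring on the lineage antibodies and with medians.

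Of the 6 proteins of the megakaryocyte and platelet list, 3 were lower in every cell group and none was higher in every one. The list had a median difference of -0.109. CD63 (0.0611 ± 0.0688) and CD62P (0.0459 ± 0.0428) went the other way, each higher in 11 of 12 cell groups. CD61, the beta chain paired with CD41, ran from 0.146 to 0.244 in Early Ery A and from 0.361 to 0.730 in MEP, and these ranges did not overlap. Its difference was -0.328 ± 0.110. CD41 was lower by 0.257 ± 0.144 on the score scale, between -0.546 and -0.0614 in single cell groups. CD9 had a difference of -0.239 ± 0.0542. As shares of tags, CD61 stood at 0.143 and CD41 at 0.179 of their MEP levels (geometric means). CD150, which is used to sort megakaryocyte progenitors, had a difference of 0.0212 ± 0.0601 within cell groups and a higher mean in 8 of 12. Cells had been sorted on CD150, and its score differed between cell groups in both classes. A difference within cell groups therefore cannot show whether CD150 separates the classes.

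Of the stem and multipotent list, 4 of 6 proteins were lower in every cell group and none was higher in every one, with a median difference of -0.0961. CD27, a TNF receptor family member of multipotent and lymphoid cells, had the most negative difference at -0.332 ± 0.0892, with a probability of 0.132 that an Early Ery A cell scored higher. CD34, a sialomucin of stem and early progenitor cells, had a difference of -0.129 ± 0.121, and its call was lost with medians over cells. Sca-1 differed by -0.0632 ± 0.028, and its call was lost after thinning and with medians. CD38, named after its values were seen, differed by -0.221 ± 0.0558. CD48 had no common direction, and the sign of its mean difference turned with the scale. Its score was higher in 10 of 12 cell groups, by 0.0351 ± 0.0435, while its share of tags averaged 14.1% in Early Ery A and 19.2% in MEP and was lower in 8 of 12 cell groups. In MEP of cell group A2 the share was 50.0%, since 1 cell held 50788 of the 62321 CD48 tags there. Without A2 the means were 13.8% and 16.4%. The tags of that 1 cell also lowered the shares of other proteins in MEP of A2. Without A2 the geometric mean ratios of shares were 3.65 for CD105, 0.128 for CD61 and 0.173 for CD41.

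The remaining lists moved little or in few members. Of 8 lymphoid proteins, CD79b and B220 were higher in every cell group. CD79b had a difference of 0.257 ± 0.0802 and took 2.04 times the share of tags it had in MEP (1.98 times without A2). B220 differed by 0.0548 ± 0.0247 and was not called after thinning, with log2 of counts per 1000 or with medians. Of 8 myeloid and dendritic proteins, only the costimulatory ligand CD86 was lower throughout (-0.153 ± 0.0736), a call that medians over cells did not give. CD16/32, the Fc receptor that marks granulocyte-monocyte progenitors, differed by -0.0771 ± 0.0546 and was higher in 1 of 12 cell groups. Of 3 adhesion and activation proteins, CD54 was lower throughout (-0.228 ± 0.0627). Its ranges over cell groups did not overlap, at 0.499 to 0.779 in Early Ery A and 0.843 to 0.934 in MEP. B220, CD86 and CD54 were named after their values were seen. The 8 mature lineage antibodies held 1 call, that of B220.

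**Figure D2:**
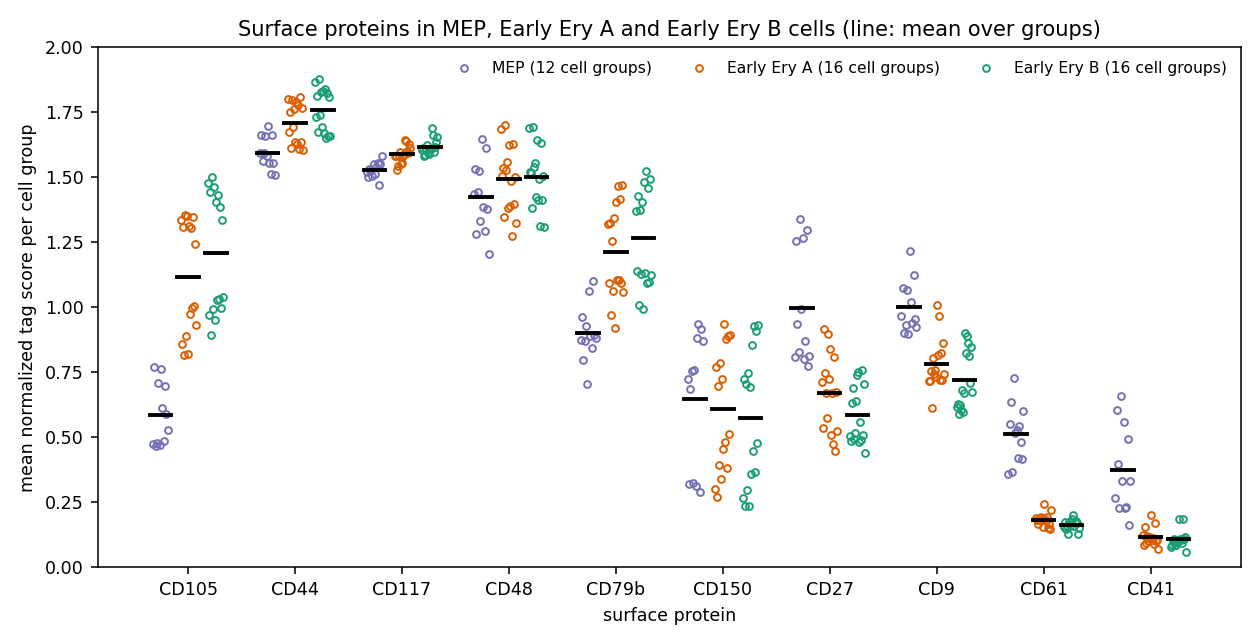
Mean normalized tag score (vertical axis, no unit) of 10 surface proteins in the cell groups of MEP (12), Early Ery A (16) and Early Ery B (16). Each circle is 1 cell group of at least 10 cells and each black line is the mean over cell groups. CD105 and CD61 of Early Ery A lay outside the MEP range, while CD150 spread from 0.272 to 0.934 in Early Ery A.

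Early Ery B was the class closest to Early Ery A. The root of the summed squared differences between the mean profiles of 35 proteins was 0.206 for Early Ery B, the smallest of 18 classes. It was 0.683 for CMP/other, 0.688 for Ery A and 0.905 for MEP. All 16 cell groups could be compared. CD44 was lower in Early Ery A in every one of them and the homing receptor CD62L was higher in every one, 1 protein (2.86%) in each direction and 2 of 35 in all (5.71%).

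CD44 ran from 1.65 to 1.88 over cell groups in Early Ery B (median 1.77), above the 1.60 to 1.81 of Early Ery A but with overlap. Within cell groups the difference was -0.0511 ± 0.0157, and the probability that an Early Ery A cell scored above an Early Ery B cell was 0.278. CD62L differed by 0.0544 ± 0.0392, with a smallest value of 0.00798 and a probability of 0.575. It took 0.553% of tags in Early Ery A and 0.377% in Early Ery B on average, a ratio of 1.47. Early Ery B cells held more tags and more RNA molecules per cell, as given above, and both calls were kept after thinning. Within the 10th to 90th percentile of tag counts, and with medians over cells, the CD62L call was lost and that of CD44 was kept.

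The other erythroid proteins were lower in Early Ery A in most but not all cell groups. CD105 differed by -0.0937 ± 0.0432 and was higher in 1 of 16. CD117 differed by -0.029 ± 0.0145 and was also higher in 1 of 16. TER-119 differed by -0.06 ± 0.088 and was higher in 5 of 16, with a most negative cell group value of -0.258. The erythroid list had a median of -0.0556 beside 0.000337 over all 35 proteins. CD79b, at -0.0533 ± 0.0338, was higher in 1 of 16 cell groups.

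The proteins that were lower than in MEP had no common direction against Early Ery B. CD27 differed by 0.0831 ± 0.102 and was higher in 12 of 16 cell groups. CD9 differed by 0.061 ± 0.0825 (13 of 16 higher), CD61 by 0.0202 ± 0.027 (12 of 16) and CD41 by 0.00944 ± 0.0203 (9 of 16). CD34 differed by -0.000214 ± 0.02, Sca-1 by -0.00326 ± 0.0471 and CD16/32 by 0.00586 ± 0.0518. CD150 differed by 0.0336 ± 0.0457 and CD48 by -0.0109 ± 0.0179. Each of these differences was smaller than its SD over cell groups. The stem, megakaryocyte, myeloid and lymphoid lists held no protein with 1 direction in all 16 cell groups.

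**Figure D3:**
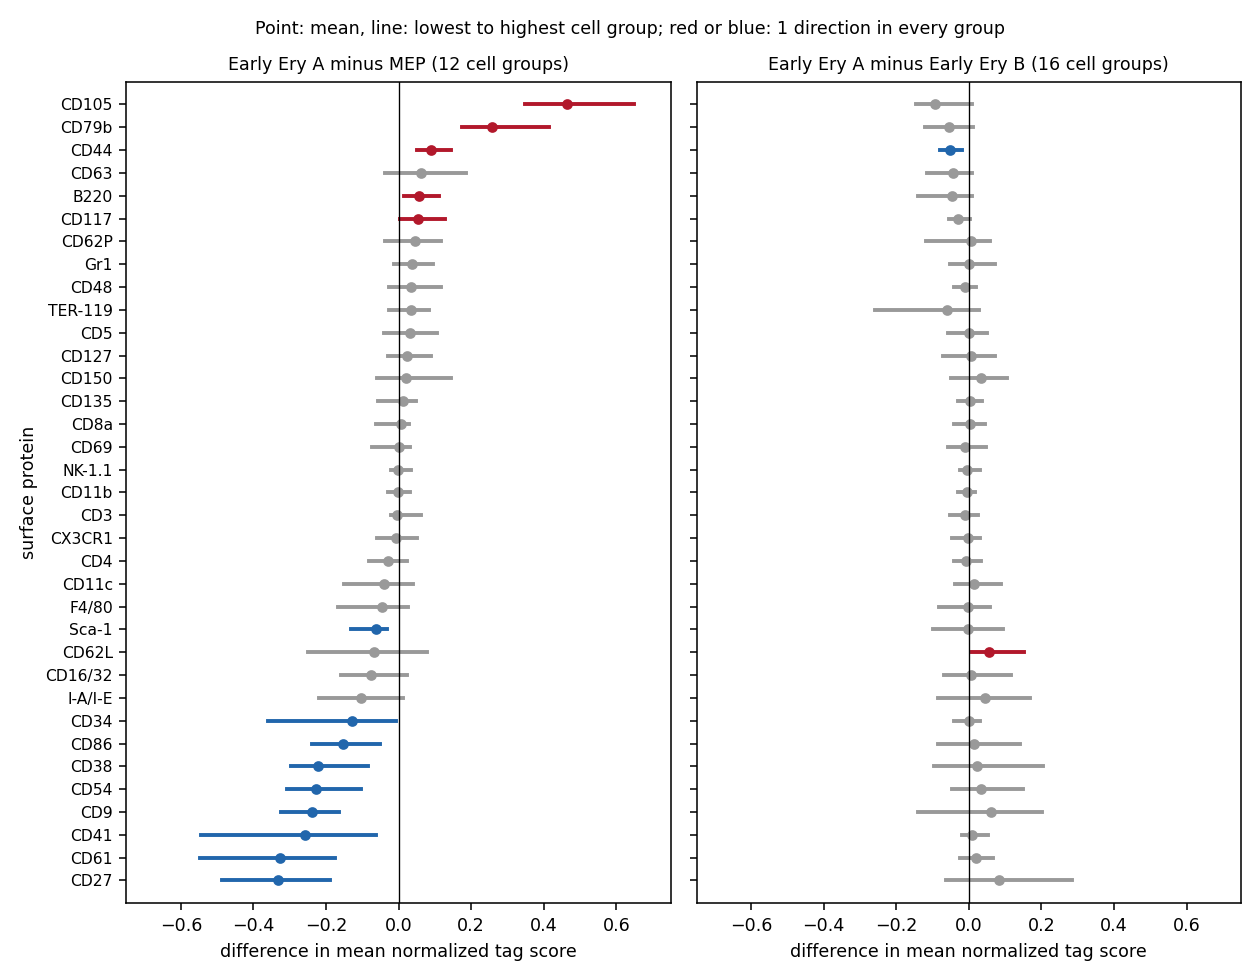
Difference in mean normalized tag score (horizontal axes, no unit) for 35 surface proteins, Early Ery A minus MEP in 12 cell groups (left) and Early Ery A minus Early Ery B in 16 cell groups (right). Points are means and lines run from the lowest to the highest cell group, red where all were above 0 and blue where all were below 0. Of the 35 proteins 14 were coloured against MEP and 2 against Early Ery B, and the comparisons share the Early Ery A cells.

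Early Ery A cells were not uniform across the numbered cell groups. Numbers 2 and 4 were set against numbers 1 and 3 within each letter and age, which gave 8 differences. A total of 14 of 35 proteins had 1 direction in all 8 (40.0%), 6 higher in numbers 2 and 4 (17.1%) and 8 lower (22.9%). This comparison was added after the values were seen. Tag depth differed as well, and the median number of tags per cell was lower in numbers 2 and 4 in every letter and age (986 in A2 against 1961 in A1). No thinned values are given for this comparison, so the part of depth in it was not tested.

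CD150 was the protein with the largest such difference. It scored 0.303, 0.394, 0.457 and 0.383 in number 1 of letters A to D, and 0.772, 0.786, 0.934 and 0.890 in number 2. In the Old cell groups it scored 0.272, 0.341, 0.481 and 0.511 in number 3 and 0.698, 0.724, 0.877 and 0.895 in number 4. Every cell group of numbers 2 and 4 lay above every cell group of numbers 1 and 3, and the difference was 0.429 ± 0.049 (n = 8).

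CD105 had the opposite pattern. It scored 1.34, 1.36, 1.31 and 1.35 in number 1 of letters A to D but 0.859, 0.888, 0.973 and 1.00 in number 2. In number 3 the scores were 1.31, 1.35, 1.31 and 1.24, and in number 4 they were 0.816, 0.822, 0.997 and 0.930. The groups again did not overlap, and numbers 2 and 4 were lower by 0.409 ± 0.092 on the score scale. This gap was close in size to the difference between Early Ery A and MEP, and MEP had a similar split, with CD105 scores of 0.770 and 0.468 in cell groups A3 and A4 and of 0.763 and 0.613 in C1 and C2. CD79b (-0.324 ± 0.083), CD27 (-0.207 ± 0.092), CD48 (-0.197 ± 0.024), CD63 (-0.182 ± 0.061), CD44 (-0.146 ± 0.024), CD9 and B220 also had lower scores in numbers 2 and 4. Of these, CD79b, CD63 and CD44 likewise had no overlap between numbers 2 and 4 and numbers 1 and 3. CD38 (0.093 ± 0.066), CD86, CD54, CD11c and CD62L were higher. CD117 differed by 0.003 ± 0.011, CD34 by 0.001 ± 0.031 and CD61 by 0.004 ± 0.038. Some of these readings changed with the scale. As shares of tags, CD117, CD34 and CD61 were higher in numbers 2 and 4 in every letter and age. The CD117 share was 14.0% in A1 and 24.9% in A2. The B220 share was also higher there in every letter and age, against its score, with 0.122% in A1 and 0.208% in A2. Shares of CD9 and CD63 had no common direction.

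**Figure D4:**
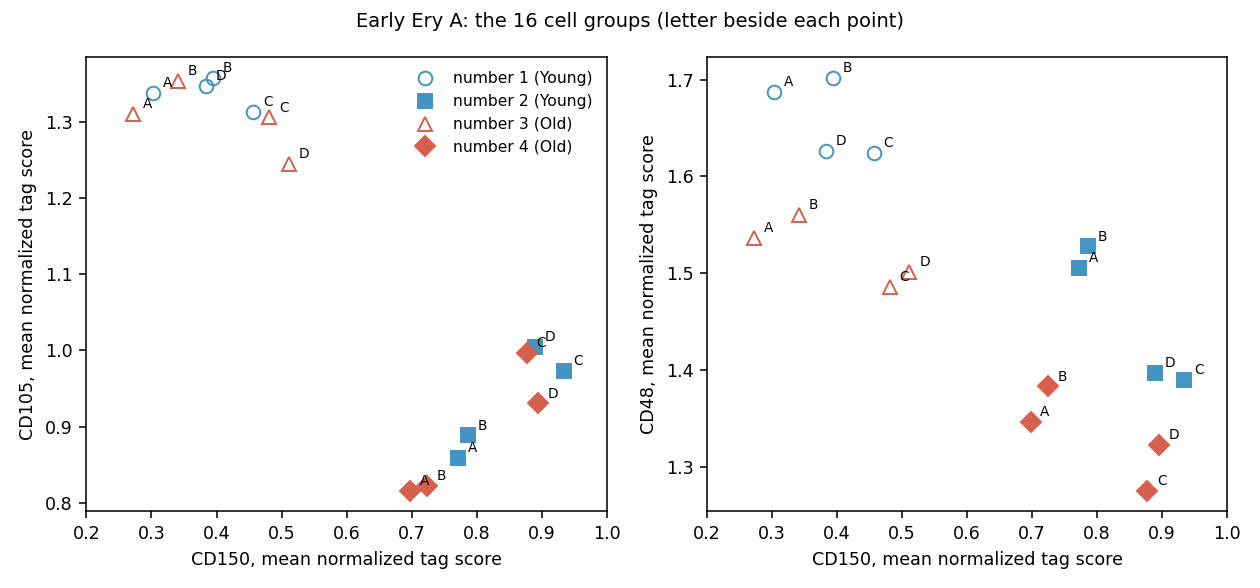
CD105 (left) and CD48 (right) against CD150 in the 16 cell groups of Early Ery A, all as mean normalized tag scores (no unit). Shapes give the number of the cell group, blue is Young, red is Old, and the letter stands beside each point. Cell groups of numbers 1 and 3 had CD105 from 1.24 to 1.36 and those of numbers 2 and 4 from 0.816 to 1.00, and within a letter CD48 was lower in number 3 than in number 1 and in number 4 than in number 2.

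Within cell groups CD105 also varied from cell to cell, from 0.671 at the 10th percentile of all Early Ery A cells to 1.38 at the 90th. After centring each cell group on its mean, CD105 correlated with CD44 (Pearson's r = 0.712), CD117 (0.577) and CD79b (0.443) over 1135 cells. It correlated negatively with CD54 (-0.378), CD38 (-0.318), CD9 (-0.294) and CD27 (-0.285). These cells share libraries and one normalization per cell, and CD105 also correlated with the log10 of RNA molecules (0.588) and of tags (0.378). After thinning to 300 tags, the values over 1126 cells were 0.380 for CD44, 0.228 for CD117, 0.187 for CD79b, -0.278 for CD54, -0.239 for CD38, -0.272 for CD9 and -0.310 for CD27. These positive values were smaller in thinned cells, and these 7 proteins kept their sign. CD48 turned from 0.141 to -0.169 and TER-119 from 0.143 to -0.0461, so no direction is given for them.

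With the numbers of a letter pooled, Early Ery A took a smaller share of the annotated cells in Old than in Young mice. It made up 827 of 12403 Young cells, or 6.67% (95% interval 6.23% to 7.12%), and 308 of 10199 Old cells, or 3.02% (2.70% to 3.37%). By letter A to D the shares were 9.28%, 8.40%, 3.79% and 3.69% in Young and 2.96%, 3.43%, 2.53% and 2.93% in Old, so the pooled Old share was lower in all 4 letters. The Young share was 5.62% without letter A and 7.61% without letter D. By number, the fall was common to all letters only between numbers 2 and 4. Early Ery A made up at least 11.1% of each cell group of number 2 and at most 8.60% of each of number 4. Between numbers 1 and 3 the share had no common direction. It was lower in number 3 in letters A (1.74% to 1.52%) and C, and higher in letters B (1.59% to 1.87%) and D. The sort, the mixing of sorted fractions and the numbers of other cells also set these shares. Among MEP, Early Ery A and Early Ery B cells as 1 pool, with all numbers of an age together, Early Ery A made up 27.4% in Young and 27.9% in Old. On that base MEP made up 10.2% in Young and 20.3% in Old, and Early Ery B made up 62.5% and 51.8%. By number, the Early Ery A share of this base was higher in number 3 than in number 1 in every letter. Cell group A1 held 37 Early Ery A, 4 MEP and 158 Early Ery B cells, and A3 held 35, 14 and 81. Between numbers 2 and 4 this share had no common direction.

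The reporter call of the authors was compared by age. Cells without Egfp RNA made up 14 of 827 Young Early Ery A cells, or 1.69% (0.929% to 2.82%), and 21 of 308 Old cells, or 6.82% (4.27% to 10.2%). The Old share was above the Young share in every letter, with 6 of 90, 4 of 106, 3 of 46 and 8 of 66 cells against 7 of 330, 2 of 300, 2 of 87 and 3 of 110. The same share was 5.84% in Young and 16.5% in Old MEP cells, and 2.70% and 10.5% in Early Ery B. Old Early Ery A cells without Egfp RNA had a median of 27118 RNA molecules against 33625 in those with it, and the part of depth in the call was not tested. These shares were not split by number, and the mix of numbers, given below, differed between the ages.

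Old and Young Early Ery A cells were compared within each letter, first over all cells of an age. In 12 of 35 proteins (34.3%) the difference had 1 direction in all 4 letters, 2 higher in Old (5.71%) and 10 lower (28.6%). Young cells were mostly of number 2, with 682 cells against 145 of number 1, while Old cells were split into 139 of number 3 and 169 of number 4. Since the numbers differed in CD150 and CD105, the cell groups were also weighted equally, which again gave 12 proteins (34.3%), 3 higher (8.57%) and 9 lower (25.7%), though not the same set. Taking number 3 minus 1 and number 4 minus 2 gave 8 differences and 6 proteins of 1 direction (17.1%). In all of these ways 5 proteins kept 1 direction (14.3%), namely CD38, CD86, CD48 and F4/80, which were lower in Old, and CD11c, which was higher.

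CD38, an ecto-enzyme that consumes NAD and marks subsets of stem and progenitor cells, had the largest difference. Its score ran from 0.537 to 0.636 over the 8 Young cell groups and from 0.283 to 0.491 over the 8 Old ones. It was the 1 protein of 35 (2.86%) whose Young and Old cell groups did not overlap. Old minus Young was -0.246, -0.199, -0.218 and -0.198 in letters A to D, with a mean of -0.215 ± 0.0222. With cell groups weighted equally it was -0.204 ± 0.0294, and in cells thinned to 300 tags it was -0.147 ± 0.0414.

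CD86 differed by -0.196, -0.150, -0.178 and -0.181 in the 4 letters (mean -0.176 ± 0.0191), and by -0.118 ± 0.0251 after thinning. CD48 differed by -0.105, -0.091, -0.097 and -0.061 (mean -0.0885 ± 0.0193), and by -0.0890 ± 0.0168 after thinning. With equal cell groups the CD48 difference was -0.131 ± 0.024. CD11c, an integrin of dendritic cells that was named after its values were seen, differed by 0.0656 ± 0.0193 and by 0.0469 ± 0.0101 after thinning. F4/80, a macrophage receptor, differed by -0.0776 ± 0.0438, and after thinning it was lower in all letters over cells (-0.0392 ± 0.0319) but not with equal cell groups (-0.0227 ± 0.0478). A single cell of cell group C2 held 3662 of the 8935 F4/80 tags of the class.

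CD150 was lower in Old in all 4 letters over cells, by -0.187, -0.177, -0.076 and -0.018 (mean -0.114 ± 0.0815). With equal cell groups the difference was -0.0148 ± 0.0573 with no common direction, and after thinning it was 0.0178 ± 0.038. The common direction was therefore lost once the numbers had equal weight. The CD150 gate was passed by 83.4% of Young cells (80.7% to 85.9%) and by 68.8% of Old cells (63.3% to 74.0%), with the unequal mix of numbers given above.

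Of the erythroid proteins, only CD44 had a common direction with age, and only when the mix of numbers was held equal. CD105 differed by 0.0551 ± 0.0589 over cells and by -0.0374 ± 0.0393 with equal cell groups. CD117 differed by -0.00188 ± 0.0485, with values of -0.044 and -0.041 in letters A and B and 0.054 and 0.024 in letters C and D. CD44 differed by -0.00917 ± 0.0109 over cells, while with equal cell groups it was lower in all 4 letters, by -0.0379 ± 0.0168. It was also lower in all 8 differences by number (-0.060 to -0.0106), and after thinning with equal cell groups it was lower in all 4 letters by -0.0156 ± 0.0114. TER-119 differed by 0.00261 ± 0.0236. The class II molecule I-A/I-E, named after its values were seen, differed by 0.288 and 0.388 in letters A and B but by 0.022 and -0.043 in letters C and D.

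Of the other gating proteins, CD41 differed by -0.00877 ± 0.0353, CD61 by -0.00898 ± 0.0175, CD9 by -0.0133 ± 0.0464, CD34 by 0.0049 ± 0.0242 and CD16/32 by -0.0355 ± 0.0403. Sca-1 differed by 0.0455 ± 0.0637 over cells, and after thinning it was higher in all letters, by 0.0599 ± 0.0444. The Sca-1 gate was met by 96.7% of Young and 88.3% of Old cells, with the near-gate cells given above. Over the lists, and beside 10 of 35 lower over all proteins, the megakaryocyte and platelet proteins had 2 of 6 lower (CD150 and CD62P), the stem and multipotent proteins 2 of 6 lower (CD38 and CD48), and the myeloid and dendritic proteins 4 of 8 lower and 1 higher. Of the lymphoid list 1 of 8 was higher and 1 lower, of the adhesion and activation list 1 of 3 was lower (CD62L), and the erythroid list had none of 4. With equal cell groups the CD150 and CD62P calls were lost and CD63 was called, which left 1 of 6 lower in that list, and the erythroid list had 1 of 4 lower (CD44). The median over all 35 proteins was -0.0064.

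**Figure D5:**
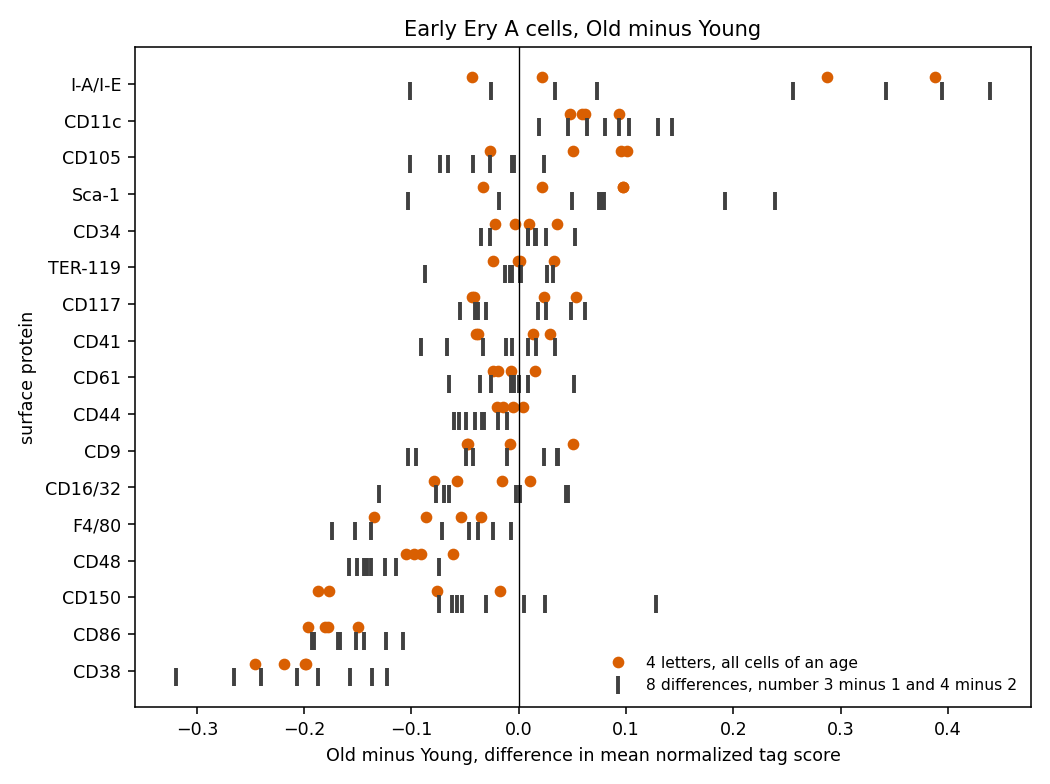
Old minus Young difference in mean normalized tag score (horizontal axis, no unit) in Early Ery A for 17 surface proteins. Orange points are the 4 letters over all cells of an age and grey ticks are the 8 differences of number 3 minus 1 and number 4 minus 2. CD38, CD86, CD48 and F4/80 lay below 0 and CD11c above 0 in all points and ticks, whereas CD150 lay below 0 in all 4 letters but not in all ticks.

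The differences with age were shared with other classes. Among the 16 classes with enough cells in all 4 letters, CD48 was lower in Old in every letter in 15, CD38 in 14, CD86 in 14 and F4/80 in 14, and CD11c was higher in 15. In MEP the mean differences were -0.163 for CD38, -0.183 for CD86, -0.124 for CD48 and 0.134 for CD11c. In Early Ery B they were -0.198, -0.168, -0.101 and 0.0464. Over cells, Early Ery A ranked 2 from the lowest of the 16 classes in CD38 and had the most negative difference in CD150. The CD150 difference had no common direction with equal cell groups, as given above. Classes were ranked over cells only, so the CD150 rank is not given as a trait of Early Ery A. Whether the age differences of the classes differ from each other was not tested.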

How the data were processed

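Antibody tags of c-Kit-enriched FlkSwitch marrow were read with 10x 3' chemistry, and the submitters' processing notes name Cell Ranger and mm10. The deposited tag counts cover 35 antibodies in 22790 cells, of which 22602 carry the authors' annotation, and the other 188 were not used. For the deposited score, each count was divided by the exponential of the cell's mean log(1 + count), and log(1 + x) was then applied 2 times. The study's methods describe 1 log transformation after the division. With 2 logarithms the score was rebuilt to within 1e-08 in all 22602 cells. Its values depend on tag depth. The share of mitochondrial RNA is a percent deposited by the authors. The authors removed cells with few genes and cells negative for CD117 tag and Kit RNA; treatment of doublets is not given in the sources used here, and no RNA matrix was analysed here. No Early Ery A cell lay above the 99th percentile of RNA molecules.

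Mean scores were compared within cell groups of at least 10 cells of each class, or within letters, and a protein was counted where all differences had 1 direction. Percentages of tags and cells were computed here. Cells were thinned to 300 tags (9 Early Ery A cells left out; random seed 0). Shares carry Clopper-Pearson 95% intervals. The calculation of the differences was checked on simulated data, and no value of that check is used here. Named proteins were the 4 markers, 8 other gating proteins and the 5 largest differences with 1 direction. Members and lists were chosen with earlier results of these data known. Gene positions are from GENCODE on GRCm38. Python 3.11.15, numpy 2.4.6, pandas 2.3.3, scipy 1.17.1 and matplotlib 3.10.9 were used. The alternatives were log2 of counts per 1000 plus 1, centring on lineage antibodies, thinning, a window of tag depth, medians, at least 20 cells, pooled numbers, 1 age, leaving out a letter and, added after seeing the data, 1 logarithm, pairs of numbers and shares of tags without cell group A2.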

Additional observations from a re-analysis of the deposited data

Results flagged for a closer look

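CD117 in number 1 had 1 cell group far from the others. The score of cell group D1 was 1.60, and its gap to the nearest of the other 3 letters was 0.906 of the whole range of the 4, although the range ran only from 1.58 to 1.60. A total of 49 sets of 4 cell groups were examined in this way, and chance flags about 1 in 20. CD62L differed between classes in its age difference. Old minus Young was -0.0265 in Early Ery A, below 0 in all 4 letters, and 0.137 in MEP, above 0 in all 4 letters. This difference between the classes was not tested. The Early Ery A value had no common direction over the 8 differences by number, after thinning, with log2 of counts per 1000, with centring on lineage antibodies, with medians or with 1 logarithm, and it was 0.0189 ± 0.0289 after thinning with equal cell groups.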

How the results depend on the processing

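Against MEP, 14 proteins had 1 direction in the main comparison and 28 did when numbers were pooled by letter, which leaves 4 differences in place of 12. Leaving out 1 letter at a time gave 14 to 17. Against Early Ery B the main count of 2 became 14 by letter, 4 in Young cells only and 4 in Old cells only, and 2 to 4 when 1 letter was left out, with 4 without letter D. For age, the main count of 12 became 6 over the 8 differences by number and 14 to 18 without 1 letter. Fewer cell groups or letters make 1 direction easier to reach. After thinning to 300 tags the age count was 13, of which 7 were shared with the main 12, and B220 and Gr1 turned to higher in Old, as B220 also did within the window of tag depth. With equal cell groups Gr1 turned to higher as well. CD117 against MEP lost its single direction with log2 of counts per 1000, with centring on lineage antibodies, with medians and after thinning, and medians also ended the calls of Sca-1, B220, CD86 and CD34. CD62L against Early Ery B lost it with medians and within the window of tag depth. Of MEP, Early Ery A and Early Ery B cells, with numbers pooled, Early Ery A made up 27.4% in Young and 27.9% in Old, in place of 6.67% and 3.02% of all annotated cells. Leaving out 1 letter gave 5.62% to 7.61% in Young and 2.84% to 3.13% in Old. No paired analysis was possible because cells are not tied to the libraries that carry the replicate numbers of the labels, and the differences within cell groups or by number do not use those. A median of 1032 tags per Old cell limits what low proteins such as CD41 and CD34 can show.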
